A study of Mus musculus with 12 samples.

Results

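The genes described here are 9 components and companions of the Notch pathway and of early T cell development in the mouse: the receptors Notch1 and Notch2, the nuclear effector Rbpj, the target genes Hes1 and Dtx1, the transcription factors Tcf7, Lef1 and Bcl11b, and the kinase Lck. They were chosen by name, with no value used, and each was found once among the 38924 genes of the deposited expression table. Bulk RNA sequencing covered 3 progenitor types isolated from bone marrow, the donors being female C57Bl/6J mice, with 4 libraries per type, 2 of them in each of 2 batches named in the sample titles. Lymphoid-primed multipotent progenitors (LMPP) were gated as Lin- Sca1+ cKit+ CD150- CD34+ Flk2hi. Common lymphoid progenitors (CLP) carried the gate Lin- Sca1lo cKitlo IL7Ra+ Flk2+. Granulocyte-monocyte progenitors (GMP) were sorted as Lin- Sca1- cKit+ CD150- CD34+ FcgR+ cells. No treatment or genetic change is named for any group. The age of the mice, the number of animals per library and the meaning of a batch are not given for these bulk libraries, and p-values therefore reflect how far these samples vary, which may be technical. In bulk samples, fewer cells of a type and less RNA per cell cannot be told apart.

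Notch receptors are cut by proteases when a ligand on a neighbouring cell binds them, and the freed intracellular domain enters the nucleus, where it joins the DNA-binding protein Rbpj and turns on targets such as Hes1 and Dtx1. In the thymus, Notch1 signalling directs progenitors into the T lineage and away from the B lineage, and Tcf7 and Bcl11b are among the factors switched on as T cells are specified. Tcf7 and its relative Lef1 bind the same DNA core and can act with beta-catenin, and Lef1 is also used by early B cell progenitors. Lck is the Src family kinase that starts signalling from the T cell receptor.

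Some libraries stood apart from their type before any of the 9 genes was considered. Values are in TPM, a level of transcripts adjusted for their length and set to a fixed total per library. Between 11064 and 12987 genes reached 1 TPM per library, and mitochondrial and ribosomal RNA genes took 11.85% to 31.42% of the total. The transcript of Flt3, which encodes the gated Flk2 protein, was at 138 and 146 TPM in the CLP libraries of batch 1 but at 8.91 and 16.98 TPM in those of batch 2. GMP libraries had 2.80 to 3.67 TPM. The batch 2 levels are low beside batch 1 for cells under the same Flk2+ gate, but the gate reads surface protein and not the transcript. Il7r was at 76.6 to 130 TPM in all 4 CLP libraries and Dntt at 922 to 1848 TPM. The summed level of 14 B lineage markers was 1702 and 282 TPM in CLP batch 1 and 5608 and 7061 TPM in CLP batch 2, against 45.57 to 175 TPM in LMPP and 35.11 to 48.55 TPM in GMP. The defining B lineage genes Ebf1 and Pax5 were at 158 to 288 TPM in CLP batch 2 and at 0.81 to 43.4 TPM in CLP batch 1, with the lowest values in replicate 2. The summed level of 11 plasmacytoid dendritic cell markers moved the other way, from 1301 and 707 TPM in CLP batch 1 to 309 and 331 TPM in CLP batch 2. Not each marker did so. By the test described below, 6 of 10 tested were called lower and 0 higher, beside 10.7% and 21.3% of all tested genes. Spib rose from 22.98 and 2.77 TPM to 36.78 and 45.61 TPM. Ly6d, on both this list and the B lineage list, fell from 515.7 and 117.23 TPM to 53.36 and 54.79 TPM. The first replicates of batch 2 in CLP and LMPP also carried 13557 and 28472 TPM of erythroid markers, and are called the haemoglobin-rich pair. They also held 12076 and 26160 TPM of mature neutrophil markers, where the next highest library was at 1966 TPM. The CLP library of this pair had 2337 TPM of GMP markers, against 200 to 284 TPM in the other CLP libraries. The LMPP library of the pair had 1443 TPM of them, within the LMPP range of 1119 to 1724 TPM. No 2 libraries held identical values.

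**Figure D1:**
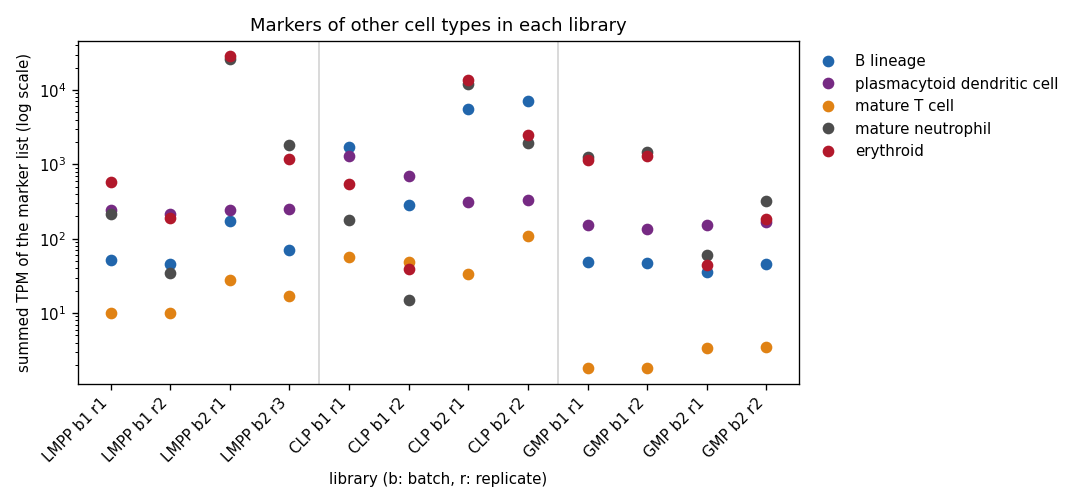
Summed TPM of marker lists of other cell types, on a log axis, in each of the 12 libraries along the horizontal axis, with 1 point per list and library and lists told apart by colour. The B lineage sums of the 2 CLP libraries of batch 2, 5608 and 7061 TPM, lie above those of batch 1, while their plasmacytoid dendritic cell sums of 309 and 331 TPM lie below.

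The DNA just before 3 annotated start sites is printed because Lef1 and Lck were the members whose levels moved over the widest range between the CLP batches or between cell types, and because both carry a core that a protein of this gene set binds. The sequences are from RefSeq on GRCm38.p6, 250 bases ending before the start site, 5′ to 3′ on the gene's strand. Capitals mark a core motif, and no RBPJ core overlapped a TCF/LEF core in these windows: TGGGAA or its reverse TTCCCA for RBPJ, and CTTTGA or its reverse TCAAAG for TCF/LEF proteins. The table matched 8 of the 9 genes with 14 start sites, and Hes1 had no entry.
Lef1, chr3:131110047-131110296, plus strand, before the gene and overlapping an exon of Gm43352: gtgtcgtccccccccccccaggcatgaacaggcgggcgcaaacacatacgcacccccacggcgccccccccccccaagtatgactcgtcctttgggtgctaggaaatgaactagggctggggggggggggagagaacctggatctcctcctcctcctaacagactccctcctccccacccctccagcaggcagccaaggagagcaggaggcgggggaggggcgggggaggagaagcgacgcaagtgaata
Lef1, chr3:131156044-131156293, plus strand, inside an intron of Lef1 before an internal start site: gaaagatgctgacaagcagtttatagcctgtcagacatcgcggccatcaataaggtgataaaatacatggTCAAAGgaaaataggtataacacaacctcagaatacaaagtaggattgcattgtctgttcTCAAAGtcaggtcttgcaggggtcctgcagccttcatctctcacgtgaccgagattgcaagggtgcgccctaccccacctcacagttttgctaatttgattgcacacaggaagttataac
Lck, chr4:129573642-129573891, minus strand, before the gene: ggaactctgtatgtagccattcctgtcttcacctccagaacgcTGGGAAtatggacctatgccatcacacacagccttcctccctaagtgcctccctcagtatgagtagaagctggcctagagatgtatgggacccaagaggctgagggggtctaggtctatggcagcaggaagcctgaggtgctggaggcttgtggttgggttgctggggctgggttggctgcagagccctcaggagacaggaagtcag
The internal Lef1 window held 2 TCF/LEF cores on the reverse strand, starting 180 and 120 bases before that start site, and the first Lef1 window held none. The Lck window held 1 RBPJ core, starting 207 bases before the start site. Over the 14 windows, 3 of them, in Rbpj and Lck, held an RBPJ core and 2, in Lef1 and Bcl11b, held a TCF/LEF core. The windows are not all separate, since those of Rbpj overlap and a core in their overlap is counted in both. Among 32851 promoter windows of the same length, 21.6% held an RBPJ core and 13.8% a TCF/LEF core, and both strands were searched. A match is only a run of letters, and the expression table does not say which start site was used.

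Between cell types, Notch1 and Lck were higher in CLP than in GMP, by 1.73 and 3.60 on a log2 scale, and Notch1, Notch2 and Lck were higher in LMPP than in GMP, by 1.10 to 2.68. Notch2 was also higher in LMPP than in CLP, by 1.33, a narrow call. Hes1 and Tcf7 were highest in CLP, the type through which they entered the test. Genes entered the test if they reached 1 TPM in at least 4 of the 12 libraries, which 12718 genes and 6 of the 9 members did. Differences are on the log2(TPM + 1) scale, fitted with limma with cell type and batch as terms, and a gene is called at a two-sided adjusted p under 0.05 after Benjamini-Hochberg adjustment over the 12718 genes. Dtx1, Lef1 and Bcl11b did not pass the filter. Hes1 reached 1 TPM only in the 4 CLP libraries, and Tcf7 in these, 1 GMP and 1 LMPP library, so both passed only through CLP and some difference of CLP from the other types was built into their selection. Lck likewise passed through CLP and LMPP, with 1 GMP library at 1 TPM. Fitted with no filter, CLP against GMP was called for Hes1 (1.72, adjusted p = 0.00284), Tcf7 (1.99, adjusted p = 0.0436) and Lck (3.60, adjusted p = 0.000556), and LMPP against CLP for Hes1 (-1.29, adjusted p = 0.0278) but not for Tcf7 (-1.80, adjusted p = 0.103). Of the 6 members tested, CLP against GMP called 4 higher in CLP and 0 lower, where 13.9% of all tested genes were called higher and 9.96% lower. LMPP against GMP called 3 higher in LMPP and 0 lower, against 21.3% and 7.62% of all tested genes. LMPP against CLP called 1 higher and 2 lower in LMPP, against 7.23% and 2.8%. Without Hes1 and Tcf7, 2 of 4 members were called higher for CLP against GMP, 3 of 4 for LMPP against GMP and 1 of 4 for LMPP against CLP, with 0 lower in each. The medians of these 4 were 0.85, 1.16 and -0.09, beside 0.09, 0.24 and 0.17 over all genes tested. These counts describe the members that passed and support nothing about the set. Counted over all 9 members by libraries that did not overlap, 5 lay wholly higher and 0 wholly lower in CLP than in GMP (11.8% and 9.12% of all tested genes), 3 and 0 in LMPP than in GMP (22.7% and 7.76%), and 2 and 2 in LMPP than in CLP (8.81% and 2.27%). The shares are over genes that passed the filter, which Lef1, 1 of the 5, did not. These 3 comparisons share their libraries in pairs and are not independent of each other. Left without both CLP libraries of batch 2, CLP against GMP called 4 members higher and 0 lower, and LMPP against GMP 3 and 0. The 4 were not the same genes, since Notch2 was called, with its sign changed, and Tcf7 was not. For LMPP against CLP the counts higher and lower were then 0 and 2. The 2 were Notch1 (-1.58, adjusted p = 0.00430) and Lck (-1.77, adjusted p = 0.0170) in place of Hes1 and Tcf7. Of all 12718 genes, this setting called 1810 higher and 1452 lower for CLP against GMP. It called 3826 and 1478 for LMPP against GMP, and 652 and 245 for LMPP against CLP. Without the haemoglobin-rich pair, CLP against GMP still called 4 higher, LMPP against GMP called 1 and LMPP against CLP called 0 in either direction. The counts over all genes, higher and lower, were then 1682 and 1454, 2577 and 940, and 742 and 171. Of all genes called, 72.1% were higher in LMPP than in CLP, 73.6% higher in LMPP than in GMP and 58.3% higher in CLP than in GMP. Median-ratio scaling changed these shares to 53%, 54.5% and 50.5%, and quantile normalization to 51.6%, 48.3% and 47.3%, with the median of all genes moved by -0.175 and -0.301 for LMPP against GMP.

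**Figure D2:**
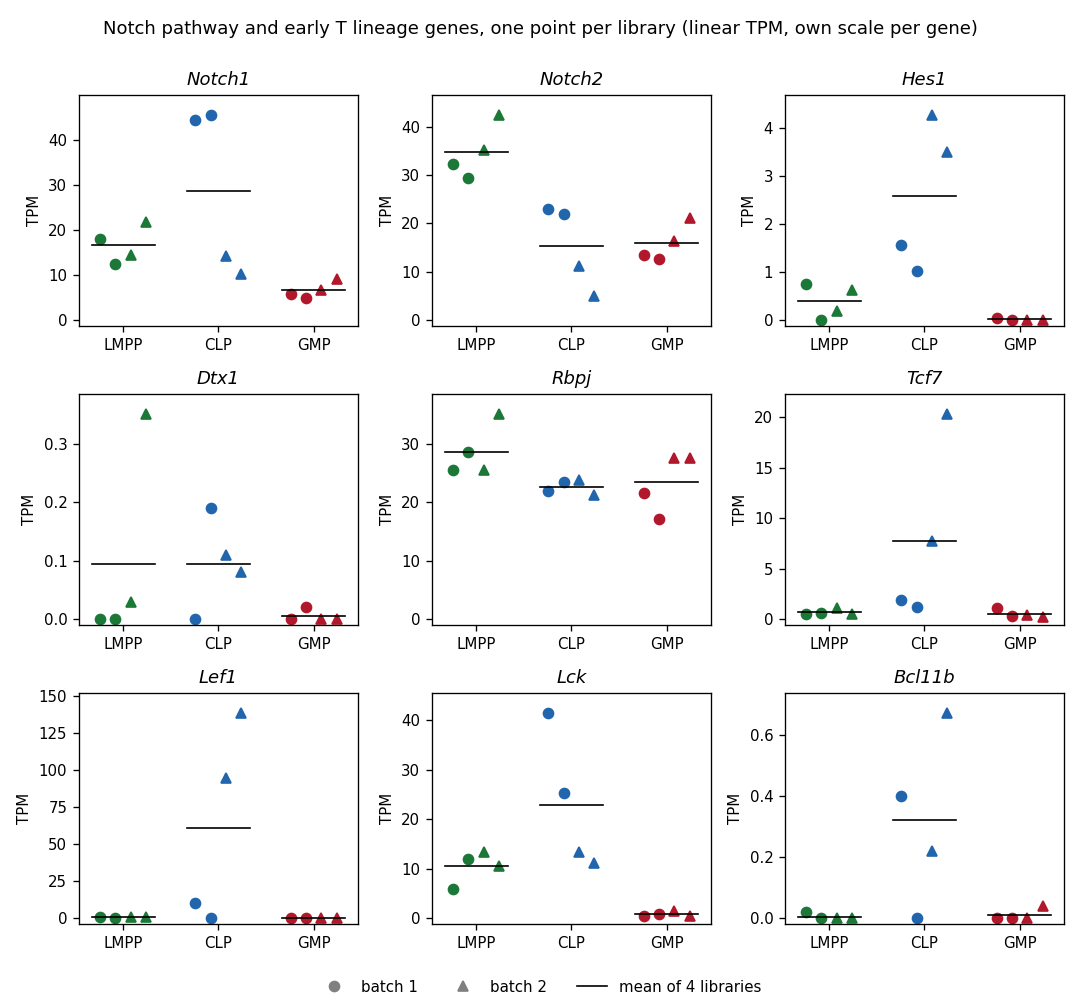
TPM of the 9 genes in each of the 12 libraries, in 1 panel per gene with its own linear axis starting near 0, with the mean of 4 libraries as a black line, cell types side by side and batches marked by symbol. Lck is lowest in all 4 GMP libraries, Notch2 is highest in the 4 LMPP libraries, and the 4 CLP libraries split by batch for Notch1, Notch2, Tcf7, Lef1 and Lck.

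Notch1, the receptor that drives T lineage commitment, lies on chromosome 2 (chr2:26457903-26516663, minus strand, mm10). Its level in CLP was 44.3 and 45.4 TPM in batch 1 and 14.2 and 10.3 TPM in batch 2. In LMPP it was 18.1 and 12.4 TPM in batch 1 and 14.3 and 21.8 TPM in batch 2. In GMP it was 5.68 and 4.87 TPM in batch 1 and 6.59 and 9.04 TPM in batch 2. GMP libraries were thus the lowest, with no overlap with either other type, and CLP held both the highest and the lowest libraries among the lymphoid types. Notch1 was higher in CLP than in GMP by 1.73 (SE 0.407, limma adjusted p = 0.00904). It was higher in LMPP than in GMP by 1.23 (SE 0.407, adjusted p = 0.0408), and that call was lost in 6 of the 12 fits that left out 1 library, with an adjusted p of up to 0.120. The libraries concerned were GMP batch 1 replicates 1 and 2, GMP batch 2 replicate 1, LMPP batch 1 replicate 1 and LMPP batch 2 replicates 1 and 3. Both of these differences held their direction in each batch, with CLP above GMP by 2.87 in batch 1 (adjusted p = 0.000223) and by 0.58 in batch 2 (adjusted p = 0.291), and LMPP above GMP by 1.35 (adjusted p = 0.00527) and 1.10 (adjusted p = 0.0930). LMPP and CLP did not differ by the test over both batches (-0.50, SE 0.407, adjusted p = 0.455). Within batch 1, LMPP lay below CLP by 1.52 (log2 difference -1.52, adjusted p = 0.0116), and within batch 2 it lay above by 0.52 (adjusted p = 0.344).

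Notch2, a receptor best known in blood for marginal zone B cells, lies on chromosome 3 (chr3:98013527-98150361, plus strand) and followed another order. Its level in LMPP was 32.4 and 29.4 TPM in batch 1 and 35.1 and 42.4 TPM in batch 2, above every other library. CLP had 22.9 and 22.0 TPM in batch 1 and 11.2 and 4.91 TPM in batch 2. GMP had 13.5 and 12.6 TPM in batch 1 and 16.4 and 21.2 TPM in batch 2, which overlapped with CLP. LMPP exceeded CLP by 1.33 (SE 0.370, adjusted p = 0.0417) and GMP by 1.10 (SE 0.370, adjusted p = 0.0435). Both calls were narrow. The first was lost in 9 of the 12 fits without 1 library (adjusted p of up to 0.113), all but those without CLP batch 1 replicate 1 or 2 or GMP batch 2 replicate 2. The second was lost in 7 (adjusted p of up to 0.120), those without CLP batch 2 replicate 1, GMP batch 1 replicate 1 or 2, GMP batch 2 replicate 1, replicate 1 of LMPP batch 1, or either library of LMPP batch 2. Without both CLP libraries of batch 2 the excess over CLP fell to 0.40 (adjusted p = 0.177), while the excess over GMP stayed at 1.10 (adjusted p = 0.000102). Within batch 2 LMPP exceeded CLP by 2.22 (adjusted p = 0.0293), and within batch 1 by 0.44 (adjusted p = 0.107). CLP against GMP changed sign with the batch, from 0.74 in batch 1 (adjusted p = 0.0143) to -1.21 in batch 2 (adjusted p = 0.0941), and the value over both was -0.24 (SE 0.370, adjusted p = 0.685).

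Rbpj, through which all Notch receptors act on DNA, lies on chromosome 5 (chr5:53466152-53657362, plus strand) and kept within 17.2 to 35.1 TPM in all 12 libraries. It measured 21.9, 23.5, 23.9 and 21.2 TPM in the CLP libraries. In LMPP it measured 25.5, 28.6, 25.6 and 35.1 TPM, and in GMP 21.6, 17.2, 27.7 and 27.7 TPM, each series with batch 1 first. The LMPP libraries were all above the CLP libraries, by less than the test could call (0.32, SE 0.162, adjusted p = 0.230), and 8.81% of all tested genes lay wholly higher in LMPP in the same way. Neither the LMPP excess over GMP of 0.29 (SE 0.162, adjusted p = 0.199) nor the CLP difference from GMP of -0.03 (SE 0.162, adjusted p = 0.915) was called. No batch gave a call for Rbpj in any of the 3 comparisons.

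Hes1, a repressor that Notch switches on in many tissues, lies on chromosome 16 (chr16:30064384-30067796, plus strand) and was low everywhere. CLP had 1.57 and 1.01 TPM in batch 1 and 4.26 and 3.49 TPM in batch 2. In LMPP it was at 0.75 TPM and listed at 0 in batch 1, while batch 2 had 0.18 and 0.63 TPM. GMP had 0.05 TPM in 1 library and was listed at 0 in the other 3. CLP libraries were above all others without overlap, and the highest of them were those of batch 2. Hes1 entered the test only through CLP, and in it the difference between CLP and GMP was 1.72 (SE 0.312, adjusted p = 0.00199), with 1.15 in batch 1 (adjusted p = 0.0590) and 2.28 in batch 2 (adjusted p = 0.0121). LMPP fell below CLP by 1.29 (log2 difference -1.29, SE 0.312, adjusted p = 0.0241), and the call was lost without any 1 of 4 libraries: CLP batch 2 replicates 1 and 2, LMPP batch 1 replicate 2 and LMPP batch 2 replicate 1 (adjusted p of up to 0.0647). Without both CLP libraries of batch 2 the difference was -0.76 (adjusted p = 0.233). These differences are compressed by the added 1 TPM, and with 0.1 TPM in its place LMPP against CLP was -2.68 (adjusted p = 0.0694).

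Dtx1, which encodes the ubiquitin ligase Deltex and is a target of Notch1 in T cell progenitors, lies on chromosome 5 (chr5:120680202-120711927, minus strand). It stayed under 1 TPM in every library. CLP ranged from 0 to 0.19 TPM, LMPP from 0 to 0.35 TPM and GMP from 0 to 0.02 TPM, and 6 of the 12 libraries were listed at 0. Tested with no filter on low values, none of the 3 cell type differences of Dtx1 was called, the largest being 0.12 for CLP against GMP (SE 0.0905, adjusted p = 0.477). The values give no order between LMPP and CLP, which both averaged 0.095 TPM (SD 0.171 and 0.0785, n = 4 each).

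Tcf7, which encodes TCF1, a factor induced by Notch at the start of T lineage development, lies on chromosome 11 (chr11:52252371-52283014, minus strand). CLP had 1.86 and 1.2 TPM in batch 1 and 7.70 and 20.3 TPM in batch 2. LMPP had 0.54 and 0.64 TPM in batch 1 and 1.06 and 0.53 TPM in batch 2, and GMP had 1.11 and 0.31 TPM and then 0.38 and 0.22 TPM. All CLP libraries were above all LMPP and GMP libraries, and most of the distance came from batch 2. Tcf7 passed the filter only through CLP, and in the test CLP exceeded GMP by 1.99 (SE 0.521, adjusted p = 0.0154). That call was lost without GMP batch 2 replicate 1 or replicate 2 (adjusted p of up to 0.0559), and without both CLP libraries of batch 2 (0.72, adjusted p = 0.158). LMPP lay below CLP by 1.80 (log2 difference -1.80, SE 0.521, adjusted p = 0.0480), a call lost in 10 of the 12 fits without 1 library (adjusted p of up to 0.124), all but those without CLP batch 1 replicate 2 or GMP batch 1 replicate 1. In batch 2 alone CLP exceeded GMP by 3.39 (adjusted p = 0.0136) and in batch 1 by 0.59 (adjusted p = 0.245).

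Lef1, the close relative of Tcf7 whose upstream windows are printed above, lies on chromosome 3 (chr3:131110471-131224356, plus strand) and spanned the widest range of the set. In CLP batch 1 it was at 10.3 TPM in replicate 1 and 0.12 TPM in replicate 2, and in CLP batch 2 at 94.7 and 138 TPM. It was at 0.39 and 0.06 TPM in LMPP batch 1, at 0.90 and 0.48 TPM in LMPP batch 2, and between 0 and 0.09 TPM in GMP. Only 3 libraries, all CLP, reached 1 TPM, so Lef1 did not enter the main test. Fitted with no filter on low values, CLP exceeded GMP by 4.29 (SE 1.04, adjusted p = 0.0248), while LMPP against CLP was -3.83 (SE 1.04, adjusted p = 0.0714). The CLP library with 0.12 TPM of Lef1 was also the one with the fewest B lineage transcripts (282 TPM over the 14 markers), and the 4 CLP libraries had the same order for Lef1 and for the B lineage sum. The part of B lineage cells in the Lef1 level was not tested.

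Lck lies on chromosome 4 (chr4:129548344-129573641, minus strand) and gave the clearest contrast between lymphoid and myeloid progenitors. CLP had 41.4 and 25.2 TPM in batch 1 and 13.4 and 11.1 TPM in batch 2. LMPP had 5.87 and 12.01 TPM in batch 1 and 13.3 and 10.6 TPM in batch 2. GMP had 0.38 and 0.81 TPM in batch 1 and 1.53 and 0.40 TPM in batch 2, below every library of the other types. CLP exceeded GMP by 3.60 (SE 0.388, adjusted p = 6.28e-05) and LMPP exceeded GMP by 2.68 (SE 0.388, adjusted p = 0.000481). Both calls held under every alternative run, leaving out each library included, with adjusted p-values of up to 0.0121 and 0.0202. LMPP and CLP overlapped, and the difference of -0.93 was not called (SE 0.388, adjusted p = 0.151), being -1.82 in batch 1 (adjusted p = 0.0328) and -0.04 in batch 2 (adjusted p = 0.961). Summed levels of 13 mature T cell markers ran in the same order of types, at 33.9 to 110 TPM in CLP, 10.2 to 28.2 TPM in LMPP and 1.82 to 3.54 TPM in GMP, with 0 to 4, 0 to 3 and 5 to 7 of them listed at 0. Within CLP the order differed, since the T marker sum was highest in batch 2 replicate 2 (110 TPM), the library with the least Lck. Their part in the Lck level was not tested.

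Bcl11b, the factor that completes T lineage commitment, lies on chromosome 12 (chr12:107910403-108003602, minus strand) and was near 0 throughout. CLP had 0.40 TPM and 0 in batch 1 and 0.22 and 0.67 TPM in batch 2, LMPP had 0.02 TPM in 1 library and GMP 0.04 TPM in 1 library, and all others were listed at 0. It did not pass the filter, and with no filter CLP against GMP was 0.36 (SE 0.120, adjusted p = 0.0832) and LMPP against CLP was -0.37 (SE 0.120, adjusted p = 0.118). The Bcl11b and Dtx1 levels were thus far below those of Notch1 and Rbpj on the length-adjusted TPM scale.

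**Figure D3:**
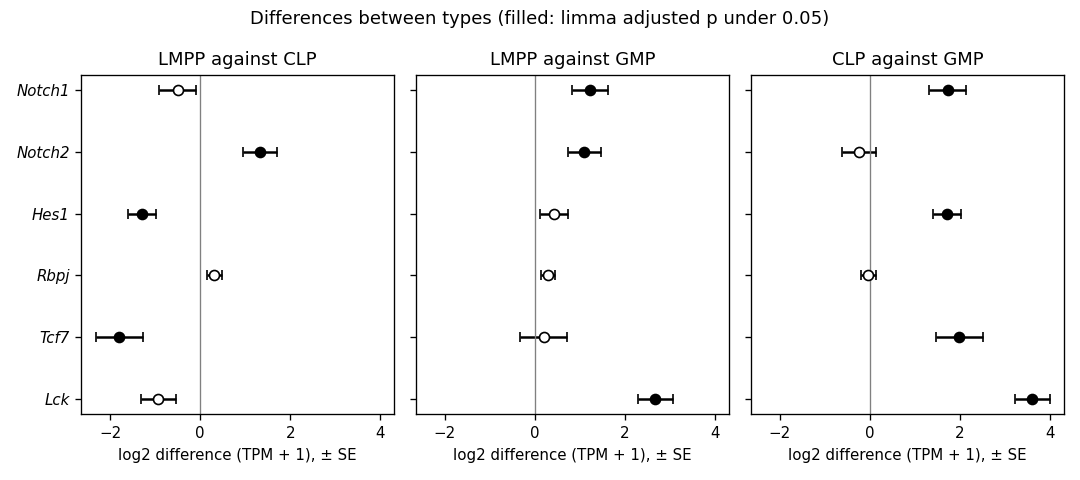
Log2(TPM + 1) differences of the 6 tested members for the 3 cell type comparisons, with points for the limma estimates and bars for 1 standard error, filled where the adjusted p is under 0.05. Lck stands farthest from 0 against GMP, at 3.60 for CLP and 2.68 for LMPP, and Rbpj stays within 0.32 of 0 in all 3 comparisons.

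Of the 9 genes, 6 also divided the CLP libraries by batch, while Rbpj, Dtx1 and Bcl11b overlapped. In batch 2, Notch1, Notch2 and Lck were lower and Tcf7, Lef1 and Hes1 were higher than in batch 1, with no overlap of the 2 libraries against 2 in any of these 6 genes. Such separation is common here, since 37.3% of all tested genes, which do not include Lef1, lay wholly higher and 24.6% wholly lower in CLP batch 2. By limma on the means of the 6 groups of type and batch, 2 of the 6 tested members were called higher and 3 lower, where 21.3% and 10.7% of all tested genes were called, 32% in all. Notch1 fell by 1.81 (SE 0.277, adjusted p = 0.00103) and Notch2 fell by 1.47 (SE 0.298, adjusted p = 0.00456). The Notch2 fall was 0.94 without CLP batch 2 replicate 2 (difference -0.94, adjusted p = 0.0112), and it was not called from the 4 CLP libraries alone (adjusted p = 0.0805). Tcf7 rose by 2.44 (SE 0.443, adjusted p = 0.00260). The Hes1 rise of 1.10 (SE 0.365, adjusted p = 0.0428) was lost without any 1 of the 4 CLP or 4 GMP libraries (adjusted p of up to 0.201). Lck fell by 1.34 (SE 0.403, adjusted p = 0.0287), a call lost without CLP batch 1 replicate 1 or CLP batch 2 replicate 2 (adjusted p of up to 0.179). Rbpj differed by -0.01 (SE 0.196, adjusted p = 0.972). With no filter on low values, Lef1 rose by 5.02 (SE 0.890, adjusted p = 0.00718).

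The batch difference of CLP was then set against the mean batch difference of GMP and LMPP, which tests whether the split was larger in CLP. It was called for 3 of the 6 tested members, 1 of them higher and 2 lower, beside 6.35% and 4.09% of all tested genes, 10.4% in all. The change from batch 1 to batch 2 was lower in CLP than in the other types for Notch1 (difference -2.16, SE 0.339, adjusted p = 0.00521) and Notch2 (difference -1.86, SE 0.364, adjusted p = 0.0130). Tcf7 went the other way (2.54, SE 0.543, adjusted p = 0.0180). The Notch2 and Tcf7 calls were lost without CLP batch 1 replicate 2, at adjusted p-values of 0.0576 and 0.0894. The Lck difference of -1.69 (SE 0.493, adjusted p = 0.0568) and the Hes1 difference of 1.08 (SE 0.447, adjusted p = 0.148) were not called. Lef1, fitted with no filter, had a difference of 4.80 (SE 1.09, adjusted p = 0.0472). Of all genes called for the CLP batch difference, 66.6% were higher in batch 2, and 46.7% after median-ratio scaling or 49.3% after quantile normalization. Beside these values, 10 of 14 B lineage markers were called higher in CLP batch 2, where 21.3% of all tested genes were. In the same comparison 6 of 10 tested plasmacytoid dendritic cell markers were called lower, where 10.7% of all tested genes were. The Flt3 levels are given above. Whether B lineage or plasmacytoid dendritic cells account for the Notch and T lineage levels was not tested. The batch itself and the makeup of the sorted cells cannot be told apart.

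**Figure D4:**
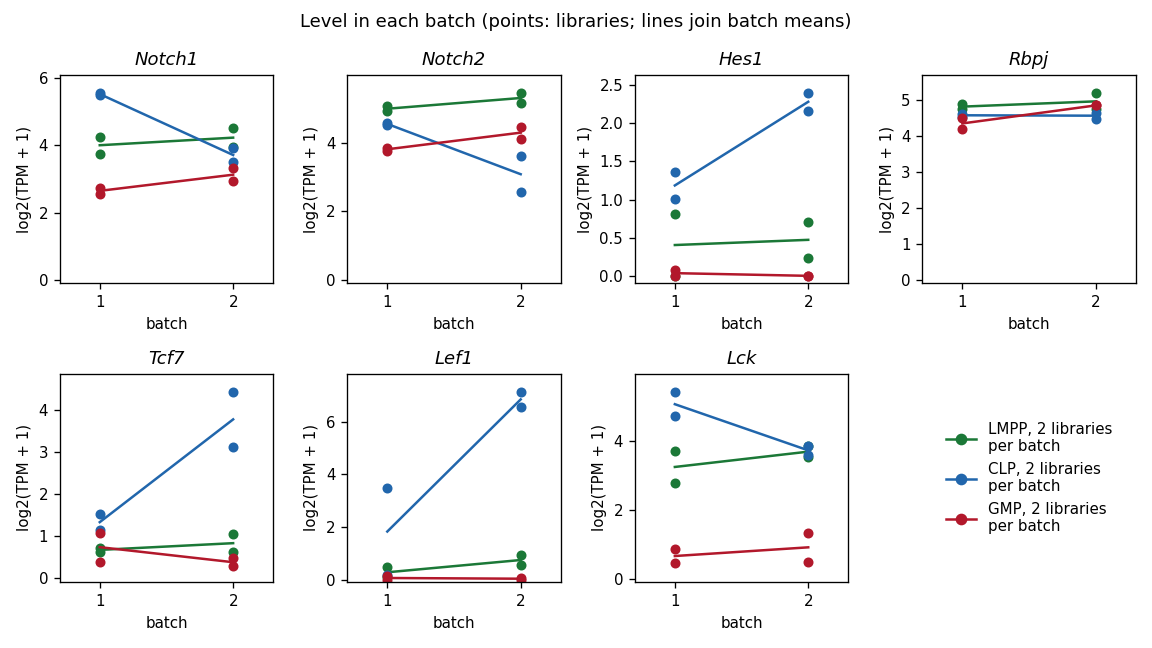
Log2(TPM + 1) levels of 7 of the genes (Dtx1 and Bcl11b left out) by batch, with points for the single libraries and lines joining the means of batch 1 and batch 2 within each cell type, told apart by colour. In CLP, Notch1 and Notch2 fall from batch 1 to batch 2 by 1.81 and 1.47 and Tcf7 rises by 2.44.

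Around these members, 75 further genes of the Notch pathway were listed by role, and 57 passed the filter. None of the 7 ligand genes (Dll1, Dll3, Dll4, Jag1, Jag2, Dlk1 and Dlk2) and neither of the other 2 receptors, Notch3 and Notch4, did so. The highest ligand value in any library was 1.32 TPM, for Dll1 in CLP batch 2 replicate 2, and Notch4 reached 0.97 TPM in LMPP batch 2 replicate 1. Of the 57, CLP against GMP called 17 higher and 6 lower, LMPP against GMP 14 higher and 1 lower, and LMPP against CLP 6 higher and 4 lower. As shares of the 57, these were 29.8% higher and 10.5% lower (13.9% and 9.96% of all tested genes), 24.6% and 1.75% (21.3% and 7.62%), and 10.5% and 7.02% (7.23% and 2.8%). The share higher for LMPP against GMP and the share lower for CLP against GMP were thus near those of all genes. Listed genes that are low in 1 type, like Hes1, could pass the filter through the types where they are high, and the counts of each group below are descriptions for that reason. Their median differences were 0.18, 0.25 and 0.11, beside 0.09, 0.24 and 0.17 over all genes tested. Without both CLP libraries of batch 2 the counts higher and lower were 14 and 6, 19 and 3, and 3 and 4. Over all 12718 tested genes they were then 1810 and 1452, 3826 and 1478, and 652 and 245. The main fit had called 1773 and 1267, 2707 and 969, and 920 and 356 of all tested genes.

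Of the 3 fringe enzymes, which add sugars to Notch receptors and alter which ligand they answer, Lfng and Mfng were lowest in GMP and Rfng was not. Rfng was at 4.07 to 5.49 TPM in GMP, 3.81 to 5.83 TPM in LMPP and 2.70 to 6.14 TPM in CLP, with no call between types. Lfng was at 5.24 to 15.8 TPM in CLP, 2.52 to 9.34 TPM in LMPP and 0.36 to 1.10 TPM in GMP, and rose by 2.38 in CLP (adjusted p = 0.000114) and by 1.85 in LMPP (adjusted p = 0.000635) over GMP. Mfng was highest in LMPP, at 29.5 to 49.8 TPM, and exceeded GMP there by 1.90 (adjusted p = 9.62e-05). Its excess over CLP of 0.75 was called (adjusted p = 0.0461) but kept under only 6 of 25 alternatives. Of the 5 genes of this group, 2 were higher and 1 lower in CLP than in GMP, beside 13.9% and 9.96% of all tested genes.

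Among 8 coactivators of Rbpj, 4 were higher in CLP than in GMP and 3 were higher in LMPP than in GMP, with 0 lower in either, where 13.9% and 21.3% of all tested genes were called higher and 9.96% and 7.62% lower. Maml2, a Mastermind protein that bridges Rbpj and the Notch intracellular domain, was at 4.55 to 11.7 TPM in CLP, 4.70 to 8.97 TPM in LMPP and 0.40 to 0.70 TPM in GMP. It rose over GMP by 2.41 in CLP (adjusted p = 5.79e-05) and 2.14 in LMPP (adjusted p = 0.000128). Maml3 followed the batch split of Notch1, at 27.1 and 21.2 TPM in CLP batch 1 and 6.86 and 5.67 TPM in CLP batch 2, a fall of 1.79 (log2 difference -1.79, adjusted p = 0.00147). Of 15 corepressors, CLP against GMP called 4 higher, among them Tle3 (0.88, adjusted p = 0.00498), and 1 lower, Ctbp2 (-1.17, adjusted p = 0.00154).

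Of 9 tested genes of the proteases that cut Notch, 2 were lower and 0 higher in CLP than in GMP, beside 9.96% and 13.9% of all tested genes. Among the 2 was the gamma-secretase subunit Ncstn (-0.75, adjusted p = 0.00668). LMPP against CLP called 2 higher, Aph1c and Adam17, and 0 lower, beside 7.23% and 2.8% of all tested genes. These calls were kept under 12 of 24 and 10 of 25 alternatives. LMPP against GMP called 0 in either direction, where 28.9% of all tested genes were called. Among 12 tested genes of ubiquitin transfer and endocytosis, Neurl3, a member of the Neuralized family, was highest in LMPP at 21.4 to 30.6 TPM, above CLP by 1.99 (adjusted p = 0.00338) and above GMP by 1.63 (adjusted p = 0.00300).

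Of 14 other genes reported as Notch targets, 8 were tested, and 5 were higher in CLP than in GMP and 0 lower, beside 13.9% and 9.96% of all tested genes. Cdkn1a, a cell cycle inhibitor, was at 73.5 to 170 TPM in CLP against 7.51 to 23.5 TPM in GMP, a difference of 2.89 (adjusted p = 7.16e-06). Id3, an inhibitor of E proteins, moved with Lef1 between the CLP batches, from 4.40 and 0.12 TPM to 28.7 and 31.1 TPM, a rise of 3.65 (adjusted p = 0.00144). The survival gene Bcl2 went the other way with Notch1, from 50.5 and 52.5 TPM to 9.28 and 10.9 TPM, a fall of 2.25 (log2 difference -2.25, adjusted p = 4.70e-05). Ptcra, the pre-T cell receptor chain, was at 0.17 TPM in CLP batch 1 replicate 1 and listed at 0 in the other 11 libraries.

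**Figure D5:**
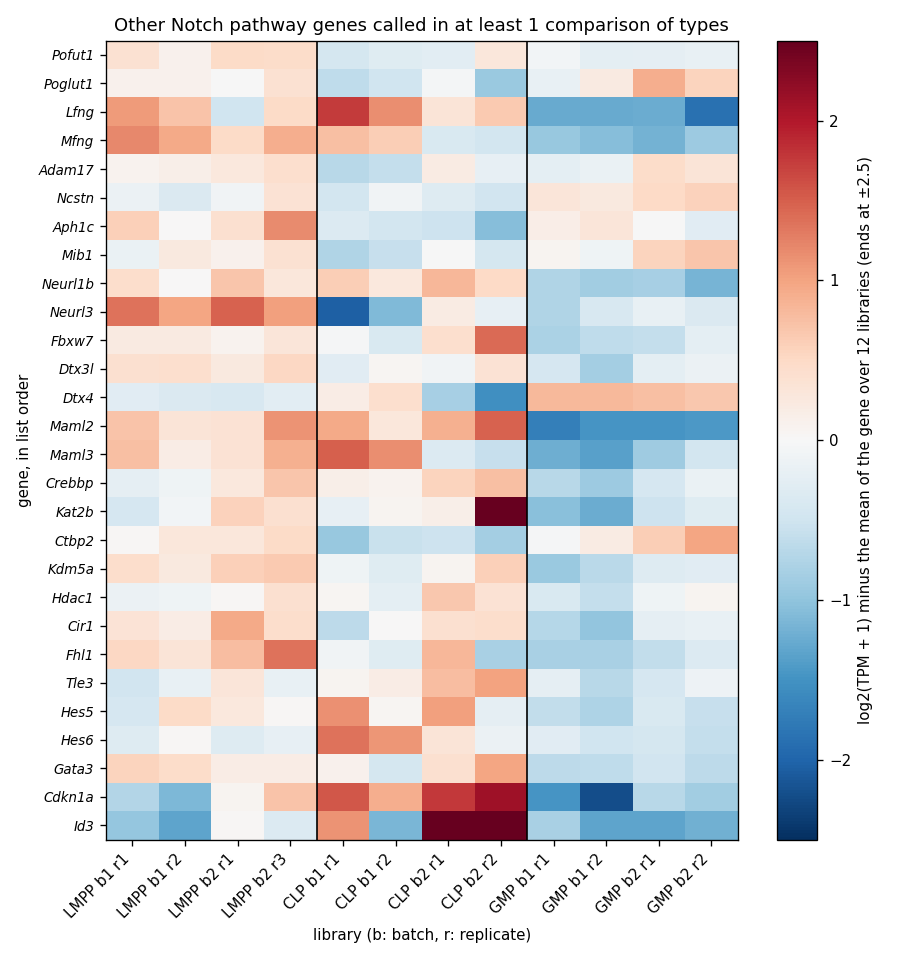
Colour map of 28 other Notch pathway genes called in at least 1 cell type comparison (rows) in the 12 libraries (columns), as log2(TPM + 1) minus the mean of the gene, red above and blue below. Lfng, Mfng and Maml2 are lowest in the 4 GMP libraries, and Maml3 is lower in CLP batch 2 than in CLP batch 1, by 1.79 (difference -1.79).

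A second set of 55 genes lies beside Tcf7, Lef1, Lck and Bcl11b in T lineage development, TCF/LEF activity and Src family signalling, and 39 passed the filter. CLP against GMP called 19 higher and 2 lower, LMPP against GMP 16 higher and 1 lower, and LMPP against CLP 2 higher and 5 lower. As shares of the 39, these were 48.7% and 5.13% (13.9% and 9.96% of all tested genes), 41% and 2.56% (21.3% and 7.62%), and 5.13% and 12.8% (7.23% and 2.8%). The median differences against GMP were 0.80 in CLP and 0.83 in LMPP, beside 0.09 and 0.24 over all genes tested. Without both CLP libraries of batch 2, 19 were higher and 2 lower in CLP than in GMP, and 20 were higher and 1 lower in LMPP than in GMP. Over all 12718 tested genes, that setting called 1810 higher and 1452 lower for CLP against GMP. For LMPP against GMP it called 3826 and 1478, where the main fit called 2707 and 969. Tox, a nuclear factor of T and innate lymphoid development, was at 1.92 to 17.1 TPM in CLP, at 6.57 to 14.7 TPM in LMPP, and at 0.04 TPM or listed at 0 in GMP. It rose over GMP by 2.90 in CLP (adjusted p = 0.000466) and by 3.47 in LMPP (adjusted p = 0.000145). Ets1, a transcription factor of lymphocytes, was higher in CLP than in GMP by 3.22 (adjusted p = 3.57e-05) and than in LMPP by 1.83 (LMPP minus CLP -1.83, adjusted p = 0.00534).

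Among the partners of Tcf7 and Lef1, Tcf7l2, another factor of the TCF family, was above GMP in both lymphoid types, while Tcf7 was not called in LMPP against GMP. It was at 16.6 to 44.1 TPM in CLP, 16.5 to 25.7 TPM in LMPP and 1.91 to 4.58 TPM in GMP, differing from GMP by 3.07 (adjusted p = 1.33e-05) and 2.58 (adjusted p = 5.93e-05). Of the 11 partners tested, 4 were higher in CLP and 5 higher in LMPP than in GMP, and 0 were lower in either, beside 13.9% and 21.3% of all tested genes higher and 9.96% and 7.62% lower. Among Src family kinases and regulators of Lck, 6 of 12 were higher in CLP and 4 of 12 higher in LMPP than in GMP, beside the same shares of all genes. Fyn, which shares T cell receptor signalling with Lck, was at 8.30 to 33.0 TPM in CLP, 10.7 to 20.1 TPM in LMPP and 2.25 to 3.52 TPM in GMP. Unlike Lck it was higher in CLP batch 2 than in CLP batch 1, by 1.32 (SE 0.320, adjusted p = 0.0108). Blk, the kinase of B cells, was at 5.35 to 21.1 TPM in CLP and at most 1.48 TPM elsewhere.

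Across the 12 libraries, Hes1, Tcf7, Lef1 and Bcl11b had high correlations with each other. Pearson's r of log2(TPM + 1) was 0.951 for Tcf7 and Lef1, 0.921 for Hes1 and Lef1, 0.888 for Lef1 and Bcl11b, 0.874 for Hes1 and Tcf7, 0.862 for Tcf7 and Bcl11b and 0.783 for Hes1 and Bcl11b. Outside these 4 genes the highest of the 36 pairs was Notch1 and Lck (0.859), and Notch2 and Tcf7 had -0.721. These values describe libraries that share cell types and batches, and have no test. In LMPP and GMP, Hes1, Tcf7, Lef1 and Bcl11b stayed at or under 1.11 TPM, and Bcl11b reached at most 0.67 TPM in CLP. The correlations among these genes thus largely set CLP libraries against values near 0. Among tested genes that averaged 10 TPM or more in some type, the pattern most like Notch1 was that of Maml3 (r = 0.957 over 12 libraries), then Kcng1 (0.935) and Mgat1 (0.930). For Notch2 they were Myo18a (0.970), Pdk1 (0.960) and Leprotl1 (0.957). For Hes1 they were Uaca (0.977), Sipa1 (0.971) and Arl5c (0.949), and for Tcf7 Spc24 (0.967), Hist1h4f (0.964) and Smarca4 (0.959). Rbpj had lower values, led by Zbtb7a (0.935), and Lck was most like Sdc1 (0.977), Jakmip1 (0.968) and Gimap9 (0.965). Lef1, added to this comparison after its values were seen, was most like Cplx2 (0.993), Id3 (0.990) and Akap12 (0.989).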

How the data were processed

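Bulk RNA sequencing covered 12 libraries, 4 each of LMPP, CLP and GMP, grouped by the labels. The authors deposited TPM per Ensembl gene, naming RSEM 1.2.12, Bowtie2 2.2.0 and edgeR 3.10.0 with build mm10 (per the submitters' processing notes, which give no order or settings). TPM keeps no depth, so the reads behind a value are unknown and no counting interval is given. RSEM shares reads between similar transcripts, and no source used here says whether strand was counted. Another 17 columns of the table matched no sample and were not used. Symbols and positions came from GENCODE M21, matched on the Ensembl ID (37607 of 38924 IDs), and promoters from RefSeq on GRCm38.p6.

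From the deposited TPM, limma 3.58.1 (R 4.3.3) was run on log2(TPM + 1), with variance moderation by mean level, after a filter of 1 TPM in at least 4 libraries. Type comparisons used type and batch (8 residual degrees of freedom), and batch comparisons the 6 groups of type and batch (6 residual degrees of freedom). The fit was tested on simulated data. Named genes are all 9 members and, from each of 11 pathway lists and each comparison, up to 4 called genes with the largest difference. The ones given beside these for their levels (ligands, Notch4, Ptcra, Flt3 and the markers) were picked after their values were seen. For likeness, the 3 genes of highest r per tested member are given. The members, lists and tests were chosen with earlier results of these data known. Replicate numbers were not used to pair libraries in the main fit. Correlations of deviations ran from -0.106 to 0.169, the highest for LMPP and CLP in batch 2. They cannot tell whether libraries of the same number shared animals or sorts. In both batches, replicate 1 had the higher erythroid marker sum in CLP and in LMPP, and the lower in GMP. Some single genes of the lists are not reported here. Alternatives are described in the closing section.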

Additional observations from a re-analysis of the deposited data

Results flagged for a closer look

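In 5 groups of 4 libraries, 1 library lay apart from the other 3 by more than the limit of Dixon's test, all at values near 0. Hes1 was at 0.05 TPM in GMP batch 1 replicate 1 and listed at 0 in the other GMP libraries. Dtx1 was at 0.35 TPM in LMPP batch 2 replicate 3, where the others were at 0 to 0.03 TPM, and at 0.02 TPM in GMP batch 1 replicate 2, where the others were listed at 0. Bcl11b was at 0.02 TPM in LMPP batch 1 replicate 1 and at 0.04 TPM in GMP batch 2 replicate 2, with the other libraries of each type listed at 0. In 4 of these groups the other 3 libraries were all at 0, where the ratio is at its maximum whatever the value, so the usual chance rate of about 1 in 20 does not apply to them and the marks carry little weight.

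The change from batch 1 to batch 2 differed between CLP and the mean of GMP and LMPP, by limma's test of that difference, for Notch1 (-2.16), Notch2 (-1.865) and Tcf7 (2.539). Lower and higher values were seen in both CLP libraries of batch 2 for each of the 3 genes.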

How the results depend on the processing

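Of 30 tests of members, 18 were called. Under all alternatives in which the gene was tested, 5 of the 18 kept the call: Lck for CLP and for LMPP against GMP, Notch1 and Tcf7 for CLP batch 2 against batch 1, and Notch1 for the batch change in CLP against the other types. The other 13 lost it under some setting, and 0 of the 18 changed direction. Tcf7 and Hes1 did not pass the filter of 5 TPM and were not tested under it. TPM carries no depth, so the error of low values (Hes1, Dtx1, Bcl11b) is unknown. The cause of the changes below was not tested.

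For members called in LMPP against CLP, the count higher (1) became 0 with a pseudocount of 0.1, no filter, no batch term, only the 2 types compared, median-ratio scaling, quantile normalization, batch 1 alone, without both CLP libraries of batch 2 and without the haemoglobin-rich pair. The count lower (2) became 0 with a pseudocount of 0.1, a filter of 5 TPM, only the 2 types compared and without the haemoglobin-rich pair, and 1 with no filter or no batch term. In LMPP against GMP the count higher (3) became 1 with no filter, no batch term, either scaling, batch 2 alone and without the haemoglobin-rich pair. In CLP against GMP it went from 4 to 2 with a filter of 5 TPM, which Hes1 and Tcf7 did not pass. For CLP batch 2 against batch 1 the count higher (2) was 1 with a pseudocount of 0.1, from the 4 CLP libraries alone, with median-ratio scaling and without mitochondrial and ribosomal RNA genes, and 0 with the 5 TPM filter, and the count lower (3) was 1 from the 4 CLP libraries alone. For the batch change in CLP against the other types the count higher (1) was 0 with a pseudocount of 0.1 or the 5 TPM filter and 2 with no filter, which let Lef1 in.

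Over all genes, LMPP against CLP (920 higher, 356 lower) gave 484 and 125 with no batch term, 370 and 166 with only the 2 types, 604 and 535 with median-ratio scaling, 595 lower with quantile normalization, 574 and 609 in batch 2 alone and 171 lower without the haemoglobin-rich pair. LMPP against GMP (2707 and 969) gave 540 lower with no batch term, 1454 lower with only the 2 types, 1612 lower with median-ratio scaling, 1552 and 1659 with quantile normalization, 802 and 324 in batch 2 alone and 1478 lower once both CLP libraries of batch 2 were left out. CLP against GMP (1773 and 1267) gave 1079 higher with no batch term and 1056 and 628 in batch 2 alone. CLP batch 2 against batch 1 (2711 and 1362) gave 1152 and 479 from the 4 CLP libraries, 2081 lower with median-ratio scaling and 1696 higher with quantile normalization. The batch change in CLP against the other types (808 and 520) gave 523 higher with quantile normalization and 532 higher without mitochondrial and ribosomal RNA genes; 60.8% of its calls were higher, against 50.7% with median-ratio scaling, 47.5% with quantile normalization and 47.9% without those genes.

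A replicate block on batch and number, although it is not known whether the numbers pair libraries, gave 155 higher and 57 lower genes and 0 members either way for LMPP against CLP, and 1619 and 595 genes and 1 member higher for LMPP against GMP. LMPP batch 2 replicate 3 was alone in its block and so added nothing to the comparisons of types. An effect of the block and the loss of that library cannot be told apart in these counts.

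Leaving out 1 library at a time gave 460 to 990 genes higher and 195 to 496 lower for LMPP against CLP, with 0 to 1 members higher and 0 to 2 lower. LMPP against GMP gave 1896 to 3307 and 673 to 1250 genes and 1 to 3 members higher, and CLP against GMP 1203 to 1797 and 898 to 1439 genes and 3 to 4 members higher. CLP batch 2 against batch 1 gave 1556 to 2878 and 701 to 2157 genes, with 1 to 2 members higher and 2 to 3 lower. The batch change in CLP against the other types gave 256 to 1361 and 172 to 1632 genes, with 0 to 1 members higher and 1 to 3 lower.

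Values that changed sign were all uncalled in the main comparison. LMPP against GMP for Tcf7 was -0.35 with quantile normalization, -0.0651 in batch 1 alone and -0.0469 to 0.530 leaving out 1 library, the lowest without GMP batch 2 replicate 2. LMPP against CLP for Notch1 was 0.52 in batch 2 alone. CLP against GMP for Notch2 was 0.74 in batch 1 alone, 0.70 without the CLP libraries of batch 2 and -0.48 to 0.19 leaving out 1 library, above 0 without CLP batch 2 replicate 2. Both the 0.74 and the 0.70 were called higher in CLP. CLP against GMP for Rbpj was 0.23 in batch 1 alone, 0.14 without the CLP libraries of batch 2 and -0.143 to 0.0430 leaving out 1 library, above 0 without CLP batch 2 replicate 2 or either GMP library of batch 2. CLP batch 2 against batch 1 for Rbpj was 0.0307 without mitochondrial and ribosomal RNA genes and -0.0934 to 0.0708 leaving out 1 library, above 0 without replicate 2 of either CLP batch.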

Other observations

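Some targets and partners that did not pass the filter on low values still lay highest in the CLP libraries of batch 2. Heyl, a relative of Hes1, was at 2.63 and 9.34 TPM there, at 0.25 TPM and 0 in CLP batch 1, and at no more than 0.08 TPM in LMPP and GMP. Tcf7l1, a relative of Tcf7, was at 2.09 and 6.94 TPM in CLP batch 2 and at no more than 0.96 TPM in the other 10 libraries. Nrarp, which Notch induces and which limits its signal, was at 5.25 and 2.53 TPM in CLP batch 2, at 2.01 and 0.74 TPM in CLP batch 1 and up to 0.87 TPM in LMPP and GMP. These genes were picked after their values were seen, and the values have no test. Of the 8 other Notch targets that were tested, 1 was called higher and 3 lower in CLP batch 2 than in batch 1. Bcl2 was among the 3. Of the 11 partners of Tcf7 and Lef1 tested, 6 were called higher and 1 lower. Over all tested genes, 21.3% were called higher and 10.7% lower.

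Markers of mature T cells moved in both directions between the CLP batches. Cd3e was at 0.34 TPM and 0 in CLP batch 1 and at 1.39 and 10.4 TPM in CLP batch 2, a rise of 2.17 (SE 0.588, limma adjusted p = 0.0181). Cd6 went from 7.92 and 8.03 TPM to 0.55 and 0.34 TPM, as Lck did, a fall of 2.64 (log2 difference -2.64, SE 0.311, adjusted p = 0.000268).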
